A study of Arabidopsis thaliana with 18 samples.

Results

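AUR1 and AUR2 encode the alpha-type Aurora kinases of Arabidopsis thaliana, and their transcript signals were followed across nitrogen supply and the dosage of the transcription factor genes LBD37 and LBD38. The genes were picked by name, without a cut-off on their values, but with earlier results of these data known. The platform gene table lists AUR1 (AT4G32830) with 1 probe set, 253403_at, and AUR2 (AT2G25880) with 1 probe set, 266655_at. These are 2 of the 22746 probe sets tested, and neither probe set lists a further gene. The beta-type Aurora gene AUR3 (AT2G45490, 267529_at) was the closest relative with a probe set of its own and is given beside them.

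Aurora kinases are serine/threonine kinases of dividing cells that act in spindle assembly, chromosome segregation and cytokinesis. In Arabidopsis the alpha-type kinases are found at the spindle and the forming cell plate and act in placing the division plane, and they overlap in function, whereas the beta-type AUR3 is found at centromeres. Transcripts of Aurora genes accumulate around mitosis, so that in tissue they come mainly from meristems and other dividing cells.

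Whole seedlings of the Col-0 ecotype, 9 days old, were hybridised one RNA sample per Affymetrix array, with 3 arrays in each of 6 groups. Replete seedlings had 9 days of full nutrition with 4 mM KNO3, and these were wild type, a T-DNA insertion mutant of LBD37 (named lbd37-1 in the design text) and a T-DNA insertion mutant of LBD38. Depleted seedlings had 7 days of full nutrition and then 2 days with no nitrogen added, and these were wild type, an overexpresser of LBD37 and an overexpresser of LBD38. The mutants were measured in replete medium only and the overexpressers in depleted medium only, so that the effect of depletion in those genotypes was not measured. The sources used here name neither the promoter of the overexpressers nor the number of independent lines nor the lbd38 allele. The labels call the replicates biological, and RNA was prepared separately for each. Whether a replicate was a separate culture is not stated, so the p-values measure the spread between these samples. The labels describe both liquid culture and a first week on agar before transfer to liquid. LBD37 and LBD38 are listed with no probe set here, so the genotype labels were not checked against the targeted genes.

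The median log2 signal of an array was 6.87 to 7.06, and arrays within a group correlated at 0.988 to 0.998 over all probe sets. Array 3 of the LBD37 overexpresser stood apart: its median was the lowest, 6.87, and its interquartile range was 2.89 against 3.06 to 3.28 on the other 17 arrays. AUR1, AUR2 and AUR3 are given with and without it in each comparison that uses it, and for the other listed genes the value without it is given where it changes a call against depleted wild type. The lower quartile of the arrays, a rough level for dim probe sets, was 5.19 to 5.34, and AUR1, AUR2 and AUR3 were above it on all 18 arrays.

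Nitrogen-depleted wild-type seedlings had lower AUR1 and AUR2 signals than replete ones, AUR1 about 2-fold and AUR2 nearly 3-fold. In depleted seedlings both genes were higher in the LBD37 and the LBD38 overexpresser than in wild type, by 1.35-fold to 1.49-fold, and both remained below the replete wild type. The LBD37 calls were the less stable. That of AUR2 was lost when some single arrays were left out, and neither gene passed for LBD37 with only the compared groups in the fit. In replete seedlings neither gene passed the test in either mutant. Because RNA of whole seedlings was measured, fewer dividing cells and less Aurora transcript per cell cannot be told apart.

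The AUR1 signal was 8.37, 8.50 and 8.36 on the replete wild-type arrays and 7.19, 7.51 and 7.46 on the depleted wild-type arrays. Every depleted array was below every replete array. The difference was -1.02 on the log2 scale (SE 0.10, 95% interval -1.23 to -0.81), a 2.03-fold lower signal, with an adjusted p of 1.16e-07 by limma.

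The AUR2 signal was 7.94, 8.12 and 7.96 on the replete wild-type arrays and 6.40, 6.55 and 6.52 on the depleted ones. The groups again did not overlap, and the 3 depleted arrays spanned a narrow range. The AUR2 difference was -1.51 (SE 0.14, 95% interval -1.81 to -1.22), a 2.86-fold lower signal, with a limma adjusted p of 5.26e-08. AUR3 was 6.63, 6.35 and 6.38 in replete and 5.67, 5.75 and 5.85 in depleted wild type, a difference of -0.70 (SE 0.13) with a limma adjusted p of 0.000147, also without overlap.

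All 3 Aurora genes therefore fell with depletion in wild type, where 26.6% of all probe sets were called lower, 23.5% higher and 50.2% in either direction. Non-overlapping arrays were seen for 58.3% of all probe sets, so the separation by itself was common. The size was less so: 9.6% of probe sets changed by more than AUR1 in either direction and 3.86% by more than AUR2, and the median change over all probe sets was -0.07. With 3 arrays against 3 an exact two-sided permutation test cannot give a p under 0.1, and it gave 0.1 for each of the 3 genes.

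**Figure D1:**
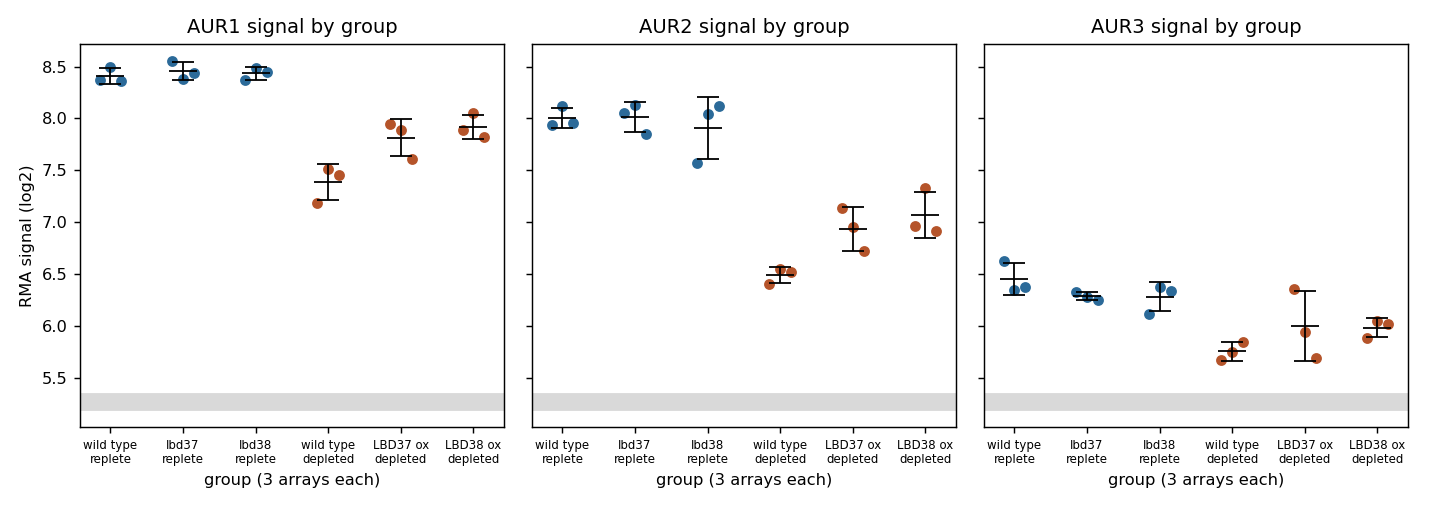
RMA signal on the log2 scale of AUR1, AUR2 and AUR3 (y axis) on each of the 3 arrays of 6 groups (x axis), with points for arrays, bars for the mean and SD, blue for replete and orange for depleted seedlings, and a grey band for the range of the arrays' lower quartiles, 5.19 to 5.34. AUR1 lay at or above 8.36 on all replete arrays and at or below 8.05 on all depleted arrays, and AUR2 at or above 7.57 and at or below 7.33, whereas AUR3 overlapped between replete and depleted arrays.

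In the depleted LBD37 overexpresser AUR1 was 7.95, 7.89 and 7.61, and all 3 arrays were above the highest depleted wild-type array. The difference from depleted wild type was 0.43 (SE 0.10, 95% interval 0.22 to 0.64), a 1.35-fold higher signal, with a limma adjusted p of 0.00613. AUR2 was 7.14, 6.95 and 6.72 in the LBD37 overexpresser, also above every depleted wild-type array. Its difference was 0.45 (SE 0.14, 95% interval 0.15 to 0.74), 1.36-fold, with a limma adjusted p of 0.0338.

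The lowest of the 3 LBD37 overexpresser values of both genes came from array 3, the one that stood apart. Without that array the difference was 0.53 for AUR1 (limma adjusted p 0.00114) and 0.56 for AUR2 (limma adjusted p 0.0139). The AUR1 call held when any 1 array was left out, with a limma adjusted p of at most 0.0465. The AUR2 call was less stable: leaving out array 1, 2 or 3 of depleted wild type gave limma adjusted p of 0.118, 0.0647 and 0.0591, and leaving out array 1 or 2 of the overexpresser gave 0.126 and 0.0606. When only the arrays of these 2 groups entered the fit, the estimates were unchanged but neither gene passed, with limma adjusted p of 0.0732 for AUR1 and 0.0518 for AUR2.

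The depleted LBD38 overexpresser had AUR1 signals of 7.89, 8.05 and 7.82 and AUR2 signals of 6.96, 7.33 and 6.92. For both genes the lowest overexpresser array was above the highest depleted wild-type array. AUR1 was higher by 0.53 (SE 0.10, 95% interval 0.32 to 0.74), 1.45-fold, with a limma adjusted p of 0.000993. AUR2 was higher by 0.58 (SE 0.14, 95% interval 0.28 to 0.87), 1.49-fold, with a limma adjusted p of 0.0067. Both calls held when any 1 array was left out, with limma adjusted p of at most 0.00857 for AUR1 and 0.0441 for AUR2.

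With all 18 arrays in the fit both members were thus called higher in each overexpresser, less stably for LBD37. Of all probe sets 7.21% were called higher for LBD37 and 9.26% for LBD38 (11.3% and 8.66% were called lower, and 18.5% and 17.9% in either direction). Arrays of the 2 groups did not overlap for 31.5% and 35.5% of all probe sets. In the LBD37 comparison 10.9% of probe sets changed by more than AUR1 and 10% by more than AUR2, and in the LBD38 comparison 7.88% and 6.7% did. Both overexpresser comparisons and the depletion comparison use the same 3 depleted wild-type arrays, so their directions are not independent of each other.

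With all arrays AUR3 did not pass in either overexpresser. Its signals were 6.36, 5.94 and 5.69 in the LBD37 overexpresser, a difference of 0.24 (95% interval -0.03 to 0.51, limma adjusted p 0.196), and 5.88, 6.05 and 6.02 in the LBD38 overexpresser, a difference of 0.22 (95% interval -0.04 to 0.49, limma adjusted p 0.275). Without array 3 the LBD37 difference of AUR3 was 0.39 (limma adjusted p 0.027), which passed. The LBD37 arrays of AUR3 overlapped those of depleted wild type and the LBD38 arrays lay just above them. The AUR3 intervals include the point estimates of AUR1 and AUR2 for LBD37 but lie below them for LBD38; whether AUR3 differed from AUR1 or AUR2 in response was not tested.

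Signs of RNA and hybridisation that moved with the groups were as follows. The 25S rRNA control signal was 10.88 ± 0.42 (SD, n = 3) in the LBD37 overexpresser and 9.19 ± 0.77 in depleted wild type, without overlap (exact permutation p = 0.1, two-sided). The GAPDH 3′ minus 5′ signal, a sign of RNA integrity, was 0.09 ± 0.06 and -0.14 ± 0.08 in the same groups (exact permutation p = 0.1, n = 3). In the depletion comparison the actin 3′ minus 5′ signal was 2.80 ± 0.14 in depleted and 2.41 ± 0.20 in replete wild type (exact permutation p = 0.1, n = 3). Between the LBD38 overexpresser and depleted wild type the exact permutation p was 0.4 for the 25S, 0.8 for the actin and 0.3 for the GAPDH control (n = 3). Their part in the Aurora differences was not tested.

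The overexpressers did not differ in Aurora signal beyond the spread between arrays. LBD37 minus LBD38 overexpresser was -0.10 for AUR1 (95% interval -0.32 to 0.11, limma adjusted p 0.637) and -0.13 for AUR2 (95% interval -0.43 to 0.16, limma adjusted p 0.669), with overlapping arrays for both. With arrays weighted by their quality, which gave array 3 of the LBD37 overexpresser a weight of 0.17, the differences were 0.02 and 0.05, and without that array they were 0.00 and -0.02. AUR3 differed by 0.02, and by 0.17 without that array (limma adjusted p 0.963 and 0.894). In that comparison 11 of all probe sets, 0.0484%, were called, a count that was 33 with array weights and 741 without array 2 of the LBD37 overexpresser.

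Against the replete wild type the depleted overexpressers remained low. AUR1 differed by -0.59 (SE 0.10, 1.51-fold lower, limma adjusted p 0.000101) in the LBD37 overexpresser and by -0.49 (1.40-fold lower, limma adjusted p 0.000687) in the LBD38 overexpresser. AUR2 differed by -1.07 (SE 0.14, 2.10-fold lower, limma adjusted p 6e-06) and -0.94 (1.91-fold lower, limma adjusted p 2.95e-05). Without array 3 of the LBD37 overexpresser its differences were -0.49 for AUR1 (limma adjusted p 0.000579) and -0.96 for AUR2 (4.48e-05). AUR3 differed by -0.46 in the LBD37 overexpresser (limma adjusted p 0.00722), and by -0.30 without array 3 (0.0473). No arrays of these groups overlapped for AUR1 or AUR2, as was the case for 42.6% and 51.7% of all probe sets, and 22.1% and 20.5% of all probe sets were called lower. Genotype and nitrogen supply both differ in these comparisons and cannot be told apart there.

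In replete seedlings AUR1 was 8.55, 8.38 and 8.44 in the lbd37 mutant and 8.37, 8.49 and 8.45 in the lbd38 mutant, within or close to the wild-type range. The differences were 0.05 (95% interval -0.17 to 0.26, limma adjusted p 0.965) and 0.03 (95% interval -0.19 to 0.24, limma adjusted p 0.959). AUR2 was 8.05, 8.13 and 7.85 in lbd37 and 7.57, 8.04 and 8.12 in lbd38, where array 1 was lower than every other replete array. The AUR2 differences were 0.00 (95% interval -0.29 to 0.30, limma adjusted p 0.998) and -0.10 (95% interval -0.39 to 0.20, limma adjusted p 0.866).

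Neither member was called in a mutant, beside 0.189% of all probe sets for lbd37 and 1.19% for lbd38. At an unadjusted p under 0.05 limma called 1688 and 2660 probe sets in these comparisons, and AUR1 and AUR2 were among neither. The intervals leave room for differences of up to 0.26 in size for AUR1 and 0.39 for AUR2. The mutants did not differ from each other in AUR1 (0.02, 95% interval -0.19 to 0.23, limma adjusted p 0.982) or AUR2 (0.10, 95% interval -0.20 to 0.39, limma adjusted p 0.889) past the threshold, where 591 of all probe sets, 2.6%, were called. That count was 292 to 388 when any 1 mutant array was left out, 1239 with only the compared groups and 1882 with array weights. AUR3 was 6.33, 6.28 and 6.25 in lbd37 and 6.12, 6.38 and 6.34 in lbd38, a difference from wild type of -0.17 in both (limma adjusted p 0.851 and 0.664).

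**Figure D2:**
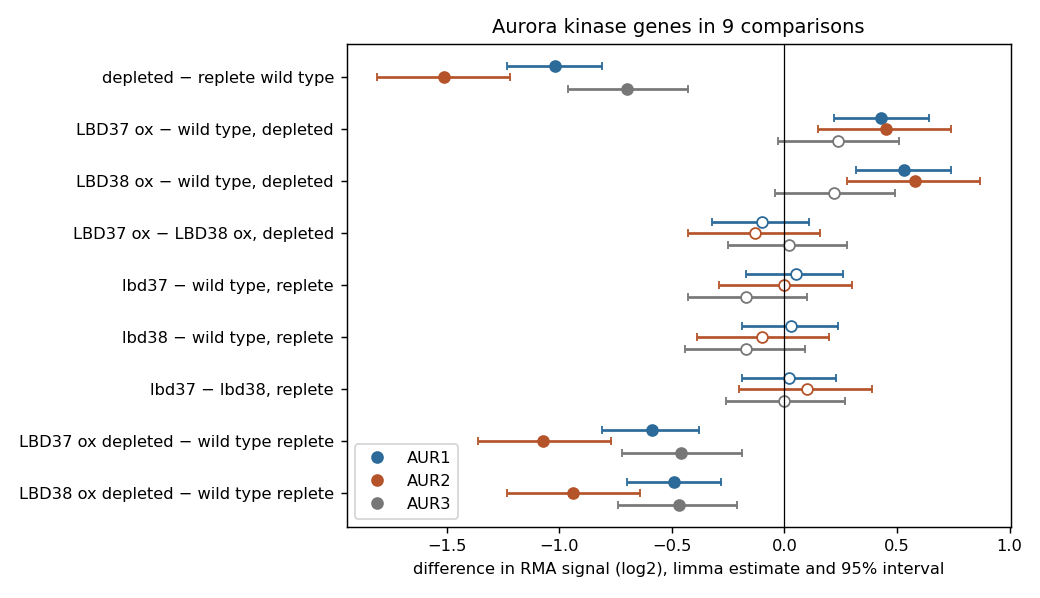
Differences in RMA signal on the log2 scale (x axis) for AUR1 (blue), AUR2 (orange) and AUR3 (grey) in 9 comparisons (y axis), as limma estimates with 95% intervals, where filled points passed an adjusted p of 0.05 and open points did not. Depletion gave -1.02, -1.51 and -0.70, the 2 overexpressers lay above 0 for AUR1 and AUR2, and every comparison of mutants or between the overexpressers had an interval that included 0.

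Ordered by group mean, AUR1 was 8.46 ± 0.09 in lbd37, 8.44 ± 0.06 in lbd38, 8.41 ± 0.08 in replete wild type, 7.92 ± 0.12 in the LBD38 overexpresser, 7.82 ± 0.18 in the LBD37 overexpresser and 7.39 ± 0.17 in depleted wild type (SD, n = 3 each). AUR2 followed with 8.01 ± 0.14 in lbd37, 8.01 ± 0.10 in replete wild type, 7.91 ± 0.30 in lbd38, 7.07 ± 0.22 in the LBD38 overexpresser, 6.94 ± 0.21 in the LBD37 overexpresser and 6.49 ± 0.08 in depleted wild type. For both genes the 3 replete groups did not differ beyond their spread and neither did the overexpressers from each other. The array ranges did not overlap between replete groups and overexpressers or between overexpressers and depleted wild type. Over all genotypes the lowest of the 9 replete arrays, 8.36 for AUR1 and 7.57 for AUR2, was above the highest of the 9 depleted arrays, 8.05 and 7.33. AUR3 did not separate in this way, with a lowest replete array of 6.12 and a highest depleted array of 6.36.

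The AUR2 signal fell further than the AUR1 signal with depletion. The absolute gap between 2 probe sets depends on their probes and has no meaning of its own, but a change of the gap within an array between groups can be compared as signal. Whether the 2 transcripts fell by different amounts was not tested. How often other pairs of probe sets separate in this way was not measured. AUR2 minus AUR1 was -0.43, -0.39 and -0.40 on the replete wild-type arrays and -0.79, -0.96 and -0.94 on the depleted ones. The groups did not overlap, and the gap differed by -0.49 (exact permutation p = 0.1, n = 3, two-sided, the smallest this design allows). Leaving out any 1 array gave -0.54 to -0.46.

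The gap in the overexpressers was that of depleted wild type rather than of replete wild type. It was -0.81, -0.94 and -0.90 in the LBD37 overexpresser and -0.93, -0.72 and -0.90 in the LBD38 overexpresser, overlapping the depleted wild type in both. The differences from depleted wild type were 0.02 and 0.05 (exact permutation p = 0.7 and 0.5, n = 3), and those from replete wild type were -0.47 and -0.45 without overlap (exact permutation p = 0.1, n = 3). Without array 3 the LBD37 differences were 0.03 and -0.47. AUR1 and AUR2 thus differed from depleted wild type by similar amounts in each overexpresser, with a gap between them no different beyond the spread. In the mutants the gap was wider spread, -0.51, -0.25 and -0.59 in lbd37 and -0.80, -0.45 and -0.33 in lbd38, and overlapped replete wild type (exact permutation p = 0.7 for both, n = 3).

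**Figure D3:**
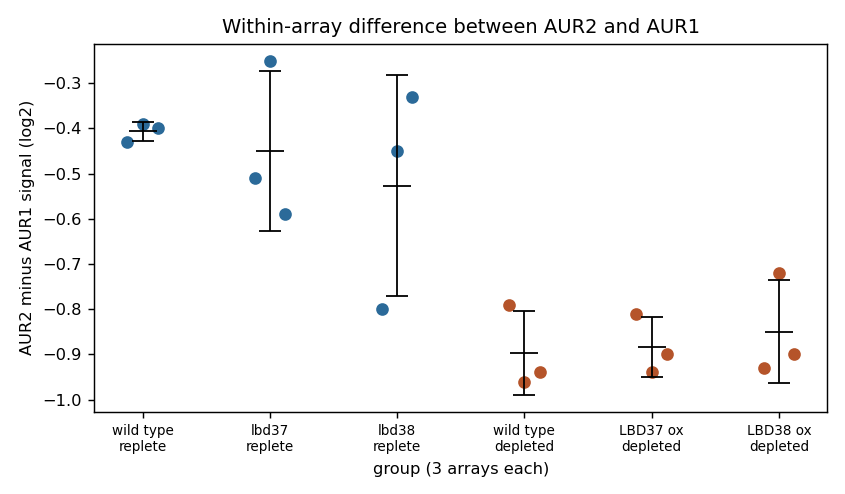
Within-array difference of the AUR2 and AUR1 signals on the log2 scale (y axis) for each array of 6 groups (x axis), with the group mean and SD as bars, blue for replete and orange for depleted seedlings. Wild-type arrays sat between -0.43 and -0.39 when replete and between -0.96 and -0.79 when depleted, the overexpressers lay with the depleted wild type, and 1 lbd38 array at -0.80 lay among the depleted values.

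Across all 18 arrays AUR1 and AUR2 had a Pearson r of 0.971 and a Spearman rho of 0.934, and the r of their deviations from the group means was 0.69. These correlations are descriptions: the arrays of a group share their treatment, and both values of an array share its normalization. AUR2 was number 28 among the 22745 other probe sets in likeness to AUR1, and AUR1 was number 131 in likeness to AUR2. AUR3 was less like them, with r of 0.869 to AUR1 and 0.886 to AUR2. The median r over all probe sets was 0.13 to AUR1 and 0.12 to AUR2.

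Among probe sets with 1 listed gene, the 6 most like AUR1 over the 18 arrays were ATLP-1, a thaumatin-like protein gene (r 0.981), VPS2.2, of the ESCRT-III family of membrane-remodelling proteins (0.980), AT5G26670 (0.977), AT1G66430 (0.975), AT2G19970 (0.975) and AT3G02120 (0.974). The 6 most like AUR2 were AT4G02800 (0.988), AT4G15830 (0.988), AT3G02120 (0.987), AT5G48760 (0.986), AT2G44640 (0.986) and AT4G24830 (0.985). AT3G02120 was the gene on both lists and differed by -1.70 with depletion, 0.54 in the LBD37 overexpresser and 0.64 in the LBD38 overexpresser. ATLP-1 changed more than AUR1, by -1.81, 0.91 and 1.01, and VPS2.2 changed by -0.85, 0.45 and 0.47. All these genes were picked by likeness over the same 18 arrays, so a shared direction is built in. Among those most like AUR2, 4 did not pass for LBD37: AT4G02800 (limma adjusted p 0.0612), AT4G15830 (0.111), AT5G48760 (0.151) and AT4G24830 (0.121). AT5G48760 (limma adjusted p 0.0998) and AT4G24830 (0.118) did not pass for LBD38 either. Ranked by Spearman's rho in place of Pearson's r, 2 of the 6 names for AUR1 and 1 of the 6 for AUR2 stayed on the list.

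The other cell division genes give the setting of the Aurora values. Of 122 genes listed for Aurora partners, mitosis and cytokinesis, DNA replication and histone H2B, 25 had a probe set of their own and a name here. The gene lists were chosen with earlier results of these data known, and some after reading the probe annotation. Their counts beside those of all probe sets are therefore a description and not a test. Probe sets of the listed mitotic cyclins, B-type and A-type cyclin-dependent kinases, D-type cyclins and cell cycle transcription factors were not analysed here. With depletion 15 of the 25 fell and 1 rose, where 26.6% of all probe sets were called lower and 23.5% higher, and the median was -0.41 against -0.07 over all probe sets. In the LBD37 overexpresser 3 rose and 1 fell with a median of 0.15, and in the LBD38 overexpresser 4 rose and 0 fell with a median of 0.13, beside a median of 0.01 over all probe sets in both. Over all probe sets 7.21% were called higher and 11.3% lower for LBD37, and 9.26% and 8.66% for LBD38, so that the counts of 3 and 4 in 25 were not far from the background. By limma at an unadjusted p under 0.05, 7 were higher and 2 lower for LBD37, where 15% of all probe sets were higher and 17.7% lower, and 8 were higher and 0 lower for LBD38, where 14.9% were higher and 12.8% lower. These counts were not stable. Without array 3 of the LBD37 overexpresser 2 rose, UBC20 and WYR, and 0 fell. For LBD37, 0 rose and 0 fell when only the compared groups entered the fit or without array 1 of depleted wild type, and 1 rose and 0 fell without array 3 of depleted wild type. For LBD38, 1 rose without array 1 of depleted wild type, 2 without array 1 and 1 without array 2 of the overexpresser.

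Of the listed partners and substrates of Aurora kinases 1 was measured by name, WYR, the Arabidopsis homologue of INCENP, which in animals anchors and activates Aurora B. WYR fell by 0.55 on the log2 scale with depletion (limma adjusted p 0.00106). It was 0.25 higher in the LBD37 overexpresser (limma adjusted p 0.17) and 0.34 higher in the LBD38 overexpresser (limma adjusted p 0.0698), which did not pass. Without array 3 the LBD37 difference was 0.37 and passed (limma adjusted p 0.0469). Its signal was 4.45 to 5.37 over the group ranges, near or under the arrays' lower quartiles.

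Of 17 mitosis and cytokinesis genes 9 fell and 1 rose with depletion, beside 26.6% and 23.5% of all probe sets. The genes that fell most were UBC20, a ubiquitin-conjugating enzyme of the type that works with the anaphase-promoting complex (-1.15, limma adjusted p 8.07e-09), TOPII, topoisomerase II (-1.0, 0.000484), the spindle checkpoint gene BUB3.1 (-0.80, 4.88e-07), PAKRP1L, a kinesin of the phragmoplast (-0.75, 0.000539), BUBR1, also of the checkpoint (-0.63, 5.36e-05), and HASPIN, a histone H3 kinase of mitosis (-0.56, 0.000216). The PAKRP1L probe set was dim, at 4.25 to 4.47 in depleted wild type, under the lower quartile of every array, so the size of its fall is uncertain. HASPIN lay just above the lower quartiles there, at 5.37 to 5.57, so the sizes of its differences from depleted wild type are also uncertain. AUR2 changed by more than each of these 17 genes, and AUR1 by more than each but UBC20. KEULE, which acts in membrane fusion at the cell plate and also in root hairs, rose by 0.53 (limma adjusted p 2.65e-05). UBC22 (-0.23), HBT (-0.14) and TON1B (-0.02) were among the 7 that did not pass.

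In both overexpressers UBC20, HASPIN and TSO1, a regulator of cell division in meristems, rose as AUR1 and AUR2 did, with smaller estimates. UBC20 differed by 0.30 (limma adjusted p 0.0278) and 0.38 (0.00588), HASPIN by 0.35 (0.0298) and 0.36 (0.0236), and TSO1 by 0.27 (0.0361) and 0.34 (0.0102) for LBD37 and LBD38. Without array 3 of the LBD37 overexpresser UBC20 still passed (0.34, limma adjusted p 0.025), and HASPIN (0.30, 0.0877) and TSO1 (0.27, 0.0659) did not. BUB3.1 rose in the LBD38 overexpresser (0.26, limma adjusted p 0.0449), and UBC19, a close relative of UBC20, fell in the LBD37 overexpresser (-0.31, 0.0447). The UBC19 call was lost without array 3 (-0.20, limma adjusted p 0.196), and no cell division gene was called lower for LBD37 after repeated quantile normalization, median centring or array weighting. TOPII (0.30 and 0.37) and PAKRP1L (0.34 and 0.29) did not pass in either.

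The 3 DNA replication genes fell with depletion: MCM7, a subunit of the replicative helicase, had a difference of -1.05 (limma adjusted p 1.59e-05), ICU2, the catalytic subunit of DNA polymerase alpha, of -0.70 (0.000873), and PSF2, of the GINS complex, of -0.53 (0.000332). The ICU2 probe set was dim, at 4.65 to 5.03 in depleted wild type, under the lower quartiles, so the size of its fall is uncertain. None of the 3 passed in an overexpresser; MCM7 differed by 0.15 and 0.28. The histone H2B genes HTB1 (-0.83) and HTB2 (-0.84) fell with depletion, and HTB4 (-0.07) and HTB11 (-0.08) did not pass. The 5 probe sets of histone H3 fell, with differences of -0.89 to -0.71, and 3 of 5 probe sets of histone H4 fell. Each H3 probe set lists the same 5 genes and each H4 probe set the same 8, so they are repeated readings of those genes. With depletion 26.6% of all probe sets were called lower. No histone H3 or H4 probe set was called in an overexpresser by limma, where 18.5% (LBD37) and 17.9% (LBD38) of all probe sets were called. At an unadjusted p under 0.05 by limma, the counts for LBD37 and LBD38 were 0 and 1 for H3 and 0 and 1 for H4. Of all probe sets 15% were then higher and 17.7% lower for LBD37, and 14.9% higher and 12.8% lower for LBD38.

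**Figure D4:**
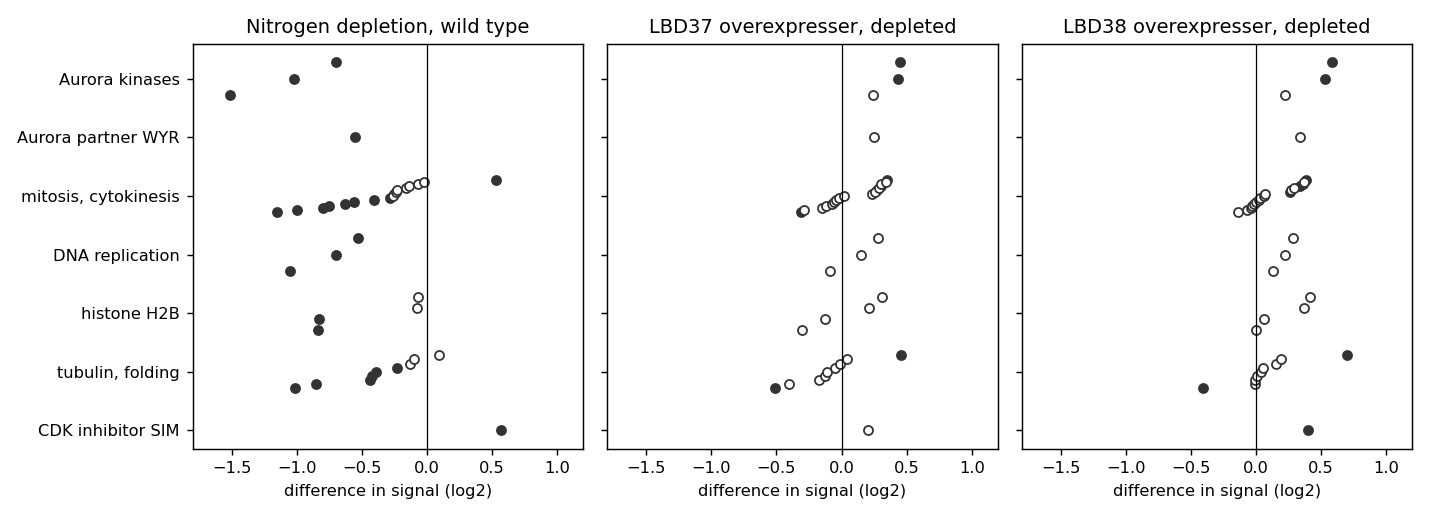
Differences in RMA signal on the log2 scale (x axis) for the Aurora kinases and the other listed genes (y axis, 1 point per gene) with nitrogen depletion in wild type and in the depleted overexpressers against depleted wild type, where filled points passed a limma adjusted p of 0.05. With depletion AUR2 at -1.51 was the lowest point, KEULE and SIM lay on the right, and in the overexpressers few points other than AUR1 and AUR2 were filled.

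Tubulins, the subunits of the spindle and of other microtubules, moved with the Aurora genes in part. With depletion 6 of 9 tubulin and tubulin folding genes fell, where 26.6% of all probe sets were called lower, led by TUB7 (-1.01, limma adjusted p 2.46e-07) and TUB5 (-0.85, 2e-07). In each overexpresser 1 of the 9 rose and 1 fell, beside 7.21% and 11.3% of all probe sets for LBD37 and 9.26% and 8.66% for LBD38. TUB7 rose by 0.46 (limma adjusted p 0.00514) and 0.70 (0.000144), and TUA1, an alpha tubulin known from pollen, fell, with differences of -0.51 (0.00507) and -0.41 (0.0214). SIM, an inhibitor of cyclin-dependent kinases that promotes endoreduplication, went the other way from AUR1 and AUR2 with depletion, where it rose by 0.57 (limma adjusted p 0.00155). It also rose in the LBD38 overexpresser (0.40, 0.0424), where AUR1 and AUR2 rose too, and it did not pass in the LBD37 overexpresser (0.20, 0.318).

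By median r over the 18 arrays, the values toward AUR2, for lists with over 1 measured gene, included those of the DNA replication genes (0.90, 3 genes), the tubulins (0.84, 9 genes), histone H2B (0.80, 4 genes) and the mitosis and cytokinesis genes (0.76, 17 genes), and toward AUR1 these values were 0.89, 0.85, 0.77 and 0.66. WYR, 1 gene, had r of 0.89 to AUR1 and 0.90 to AUR2. SIM had r of -0.65 to AUR1 and -0.73 to AUR2. For scale, AUR3, with r of 0.869 to AUR1 and 0.886 to AUR2, was number 1774 and 1893 in likeness among the 22745 other probe sets. Many probe sets thus had a higher r than the medians of the tubulins, histone H2B and the mitosis and cytokinesis genes. In both mutants none of the 25 cell division genes passed, with lowest limma adjusted p of 0.585 and 0.318. Of all probe sets 0.189% were called for lbd37 and 1.19% for lbd38. At an unadjusted p under 0.05 by limma, 1 of the 25 fell in lbd37 and 1 rose in lbd38. Of all probe sets 4.27% were then lower in lbd37 and 4.31% higher in lbd38, so these counts were near the background.

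**Figure D5:**
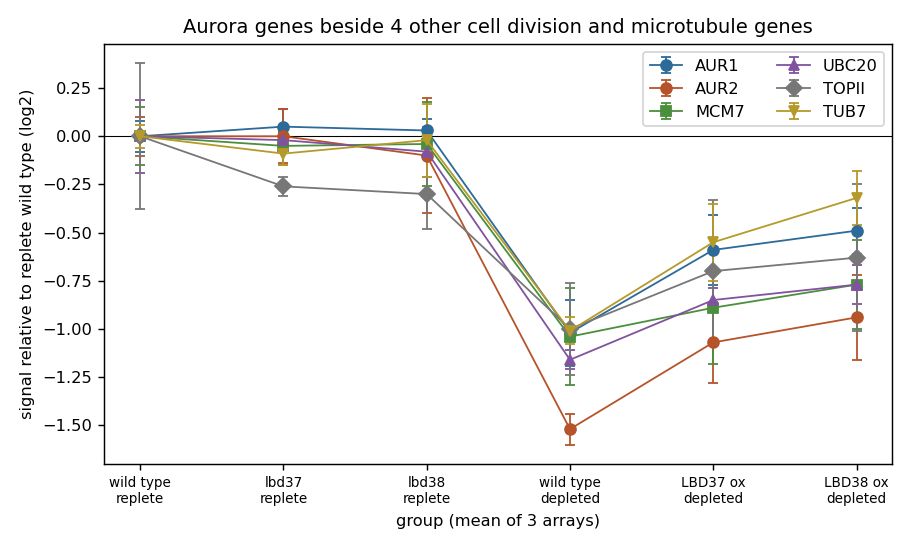
Group means over 3 arrays of AUR1, AUR2, MCM7, UBC20, TOPII and TUB7, as the difference from the replete wild-type mean on the log2 scale (y axis) in 6 groups (x axis), with SD bars. The 4 genes beside AUR1 and AUR2 were picked after their values were seen, for their large fall. Their low place in depleted wild type was thus set by the choice, and the overexpressers are set against those same arrays. The means of all 6 lay between depleted and replete wild type in both overexpressers. MCM7 and TOPII did not pass the test against depleted wild type in either overexpresser.

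Markers of cell types that a whole seedling holds changed in part of the same comparisons. Of 5 listed leaf and stomatal lineage markers 4 were measured: SPCH, which starts the divisions of the stomatal lineage, differed by -1.41 with depletion, 1.35 in the LBD37 overexpresser and 1.46 in the LBD38 overexpresser, each past the threshold (limma adjusted p 8.5e-07, 1.61e-05 and 7.48e-06). SPCH was dim in depleted wild type, at 5.23 to 6.03, reaching down to the arrays' lower quartiles of 5.19 to 5.34. All 3 of its differences use those arrays, so their sizes are uncertain. YAB3, a gene of the lower leaf side, differed by -0.81, 0.26 and 0.32, MUTE by -0.26, 0.21 and 0.15, and FMA, of late guard cell formation, by 0.24, 0.23 and 0.16. With depletion 3 of the 4 fell and 1, FMA, rose, where 26.6% of all probe sets were called lower and 23.5% higher. In the overexpressers 2 of the 4 rose for LBD37, SPCH and FMA (limma adjusted p 0.0485), and 1 for LBD38, SPCH. Of all probe sets 7.21% and 9.26% were called higher. YAB3 (limma adjusted p 0.14) and MUTE (0.0685) did not pass for LBD37. The summed linear signal of the 4 was 589.4 to 656.9 in replete and 350.9 to 436.1 in depleted wild type, 501.1 to 571.5 in the LBD37 overexpresser and 498.8 to 592.3 in the LBD38 overexpresser. In the replete mutants this sum was 589.4 to 663.4 for lbd37 and 468.2 to 552.9 for lbd38.

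The root hair expansins EXPA7 and EXPA18 ran opposite to AUR1 and AUR2 with depletion, with 0.51 and 0.74 (limma adjusted p 0.00832 and 0.000552), and in the LBD37 overexpresser, with -0.62 and -0.48 (0.00772 and 0.0388). Without array 3 EXPA7 still passed (-0.47, limma adjusted p 0.039) and EXPA18 did not (-0.35, 0.161). In the LBD38 overexpresser they differed by -0.31 and -0.33 and did not pass. Their summed linear signal was 290.6 to 318.5 in replete and 361.3 to 601.8 in depleted wild type, 263.5 to 352.0 in the LBD37 overexpresser and 344.6 to 423.8 in the LBD38 overexpresser. In the replete mutants, where AUR1 and AUR2 were not called, this sum was 283.3 to 295.6 for lbd37 and 329.4 to 399.2 for lbd38. CLV3, of the shoot stem cells, was dim at 5.12 to 5.73 over the groups and did not pass. Measured by these markers both shoot and root RNA were present in every group, and the part that a shift between organs or cell types had in the Aurora differences was not tested.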

How the data were processed

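Biotin-labelled RNA of 18 seedling samples was hybridised to Affymetrix arrays, and the deposited values used here are log2 signals per probe set that the authors made with RMA, per the submitters' processing notes (version not given in the sources used here). From the 22810 deposited rows 64 control probe sets were left out. The remaining 22746 were fitted with limma 3.58.1 in R 4.3.3 as 6 group means with a shared spread (residual df 12, prior df 5.89), with Benjamini-Hochberg adjustment over all probe sets and a threshold of 0.05. SE and 95% intervals come from that fit. The number of arrays limits the precision. The platform table gave 13513 probe sets 1 gene, 503 several and 8730 none, and a gene was named only where it listed 1. The named genes were the Aurora genes and, per list and comparison, up to 6 with the largest change past the threshold and up to 3 that did not pass, and the 6 most like each Aurora gene by Pearson r. Members and lists were chosen with earlier results of these data known, and some lists after reading the probe annotation; 8 listed loci with no name here were left out. Replicate numbers did not pair the samples. Alternatives were the replicate block, repeated quantile normalization, median centring, leaving out the dimmest 40% of probe sets, only the groups compared, a trended robust eBayes, array weights, only 1-gene probe sets, and leaving out each array. The fit was tested on simulated data.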

Additional observations from a re-analysis of the deposited data

How the results depend on the processing

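The fall of AUR1 and AUR2 with depletion, their rise in the LBD38 overexpresser and their fall against replete wild type kept direction and side of the threshold in all alternatives. Same-numbered replicates did not deviate together (r -0.25 to 0.26), and with the replicate block the LBD37 overexpresser differed by 0.43 for AUR1 (limma adjusted p 0.0058) and 0.45 for AUR2 (0.024), and no Aurora call changed. With only the compared groups these were 0.43 (0.0732) and 0.45 (0.0518), 0 cell division genes rose and 0 fell for LBD37, and 2067 probe sets passed for LBD37, 7 between overexpressers, 68 for lbd37 and 1239 between mutants. With array weights AUR1 and AUR2 differed between overexpressers by 0.02 and 0.05, AUR2 by -0.01 in lbd37, 0.01 in lbd38 and -0.02 between mutants, 33, 76 and 1882 probe sets passed between overexpressers, for lbd37 and between mutants, and 5 cell division genes rose and 0 fell for LBD37. The latter count was also 0 after repeated quantile normalization, where AUR1 between mutants was 0.00, and after median centring. The cause was not tested. With 1-gene probe sets, fewer were tested, and 6212 (depletion), 2182 and 2040 (overexpressers), 7 (between them), 25 (lbd37), 111 (lbd38), 272 (between mutants), 4710 and 4942 (overexpressers against replete wild type) passed. Leaving out 1 array gave 0.35 to 0.56 for AUR2 in LBD37 (adjusted p 0.0139 to 0.126), and for differences near 0: 0.00 to 0.09 (AUR1) and -0.06 to 0.08 (AUR2) in lbd37, 0.00 to 0.07 and -0.20 to 0.08 in lbd38, and -0.03 to 0.06 and -0.07 to 0.21 between mutants. Probe set counts were then 2736 to 4822 and 2603 to 3539 for the overexpressers, 8 to 741 between them (741 without array 2 of the LBD37 overexpresser), 11 to 50 (lbd37), 120 to 266 (lbd38) and 292 to 388 (between mutants), and cell division genes 0 to 2 risen and 0 to 1 fallen for LBD37 and 1 to 5 risen for LBD38. By Spearman's rho 2 and 1 of the 6 most similar genes were shared.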
